A study of Homo sapiens with 9 samples.

Results

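The comparison described here is added MYC on the background of a DHX15 knockdown, in KOPTK1, an established human cell line of T-cell acute lymphoblastic leukaemia (T-ALL). It rests on 6 of the 9 libraries of the study, chosen by their labels alone. In 3 of them (shDHX15) the cells carried a lentiviral short hairpin RNA against DHX15, and in the other 3 (shDHX15+MYC) they carried that hairpin together with lentiviral expression of the MYC coding region. A further 3 libraries with a control hairpin (shControl) are quoted as levels and entered no test, apart from an alternative fit of all 9 libraries. The labels give WT as the genotype of every library and the stated question is whether MYC is a downstream target of DHX15. All results are from 1 line, and the column names show 1 hairpin number. There is no group with added MYC and a control hairpin, so an effect of MYC that needs low DHX15 cannot be told apart from one that does not. There is also no empty vector in the shDHX15 libraries that the labels name, and effects of carrying a second construct cannot be told apart from those of MYC. Polyadenylated RNA was counted per gene, and 15169 of 17637 genes had enough counts to be tested.

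MYC is a basic helix-loop-helix transcription factor. With its partner MAX it binds E-boxes, of which CACGTG is the canonical form, and it also works against the activator MIZ1 at other promoters. It is known for raising the machinery of ribosome production, translation, nucleotide and polyamine synthesis and mitochondrial biogenesis, and for lowering genes that restrain the cell cycle. In T-ALL it is a main effector downstream of NOTCH1. DHX15 is a DEAH-box RNA helicase that takes spent spliceosomes apart and acts in ribosome assembly, where partner proteins with a G-patch motif switch it on.

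E-boxes stand in the promoters of several genes on which the results below turn. The stretches shown are from RefSeq (GRCh38.p14), 5′ to 3′ on the strand of the gene, with the E-box in capitals. PNO1 and UTP20 encode factors of the small ribosomal subunit's assembly, GNL2 a GTPase of the large subunit's assembly, and SRM spermidine synthase, and all 4 were higher with MYC. BNIP3, a mitophagy receptor, is shown because its promoter holds the same letters and its message was lower.
PNO1: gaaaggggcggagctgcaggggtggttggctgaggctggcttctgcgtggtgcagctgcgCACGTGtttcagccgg
UTP20: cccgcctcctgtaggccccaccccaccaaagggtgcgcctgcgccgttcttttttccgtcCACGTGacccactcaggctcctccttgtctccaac
GNL2: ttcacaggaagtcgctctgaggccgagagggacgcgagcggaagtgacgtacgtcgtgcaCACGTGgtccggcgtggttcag
SRM: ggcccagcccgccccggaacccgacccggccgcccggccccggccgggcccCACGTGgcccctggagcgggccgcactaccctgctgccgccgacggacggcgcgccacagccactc
BNIP3: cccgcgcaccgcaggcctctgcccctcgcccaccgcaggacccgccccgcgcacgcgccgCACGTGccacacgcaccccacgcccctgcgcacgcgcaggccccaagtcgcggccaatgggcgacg
The PNO1 stretch is chr2:68157837-68157912 (plus strand), and its E-box begins 9 bases downstream of the annotated start. That of UTP20 is chr12:101280035-101280129 (plus strand), with the E-box 10 bases upstream of the start. GNL2 is shown at chr1:37595913-37595994 (minus strand), with the E-box 3 bases downstream, SRM at chr1:11060152-11060268 (minus strand), with the E-box 199 bases upstream, and BNIP3 at chr10:131981992-131982117 (minus strand), with the E-box 134 bases upstream.

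The libraries held 42134302 to 59688062 counts. Those with MYC covered more genes, with at least 10 counts in 15243 to 15261 genes against 14296 to 14482 in shDHX15. Replicate 1 of shDHX15 stood apart from the other 2 of its group: a chi-square of counts over genes, per degree of freedom, was 18.0 and 17.1 against them and 4.45 between them, while pairs of the other groups gave 2.73 to 3.23. Without it, 6638 genes were called higher and 6566 lower. The labels do not say that replicates are separate cultures, so p-values speak only of the scatter among the libraries at hand, which may be technical. Levels are in CPM, counts scaled to a common library size with trimmed-mean (TMM) factors, every fold change, rise or fall by a given amount is on the log2 scale of shDHX15+MYC over shDHX15, and adjusted p-values are from edgeR's quasi-likelihood test with Benjamini-Hochberg adjustment over all genes tested. A gene is called at an adjusted p under 0.05, and "rose" and "fell" are used of called genes only.

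MYC itself checks the labels. Its level was 85.2, 91.2 and 84.2 CPM in the 3 shDHX15 libraries and 6926, 7174 and 7202 CPM in the 3 shDHX15+MYC libraries, against 109 ± 0.5698 CPM in shControl. The groups were far apart, and MYC took 0.773% to 0.799% of all counts in the libraries that carried the construct. The log2 fold change was 6.36 (SE 0.0455, edgeR adjusted p = 7.34e-18), which is 82.2-fold. Its locus is on the plus strand of chromosome 8, from 127735434 to 127741434 in GRCh38. Counts of the added coding region and of the endogenous message cannot be told apart, and shDHX15+MYC held more MYC than shControl by a wide margin.

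DHX15, the hairpin's target, stood at 182, 162 and 155 CPM in shDHX15 and 197, 196 and 192 CPM in shDHX15+MYC, with 280.4 ± 3.38 CPM in shControl. All 3 libraries with MYC lay above those of shDHX15 and below those of shControl. It rose by 0.24 (SE 0.0518, edgeR adjusted p = 6.73e-04). Its RNA was thus less depleted with MYC, and effects of that difference on other genes cannot be told apart from those of MYC. The DHX15 locus is on the minus strand of chromosome 4, from 24517441 to 24584550 in GRCh38.

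SRM, spermidine synthase and a long-known MYC target, stood at 10.1, 11.9 and 10.9 CPM in shDHX15 and at 68.3, 72.97 and 74.05 CPM with MYC. No library of one group came near the other group, and shControl lay between them at 40.5 ± 1.75 CPM. The log2 fold change was 2.71 (SE 0.0659, edgeR adjusted p = 2.55e-13), 6.55-fold. Its locus is on the minus strand of chromosome 1, from 11054584 to 11060024 in GRCh38.

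**Figure D1:**
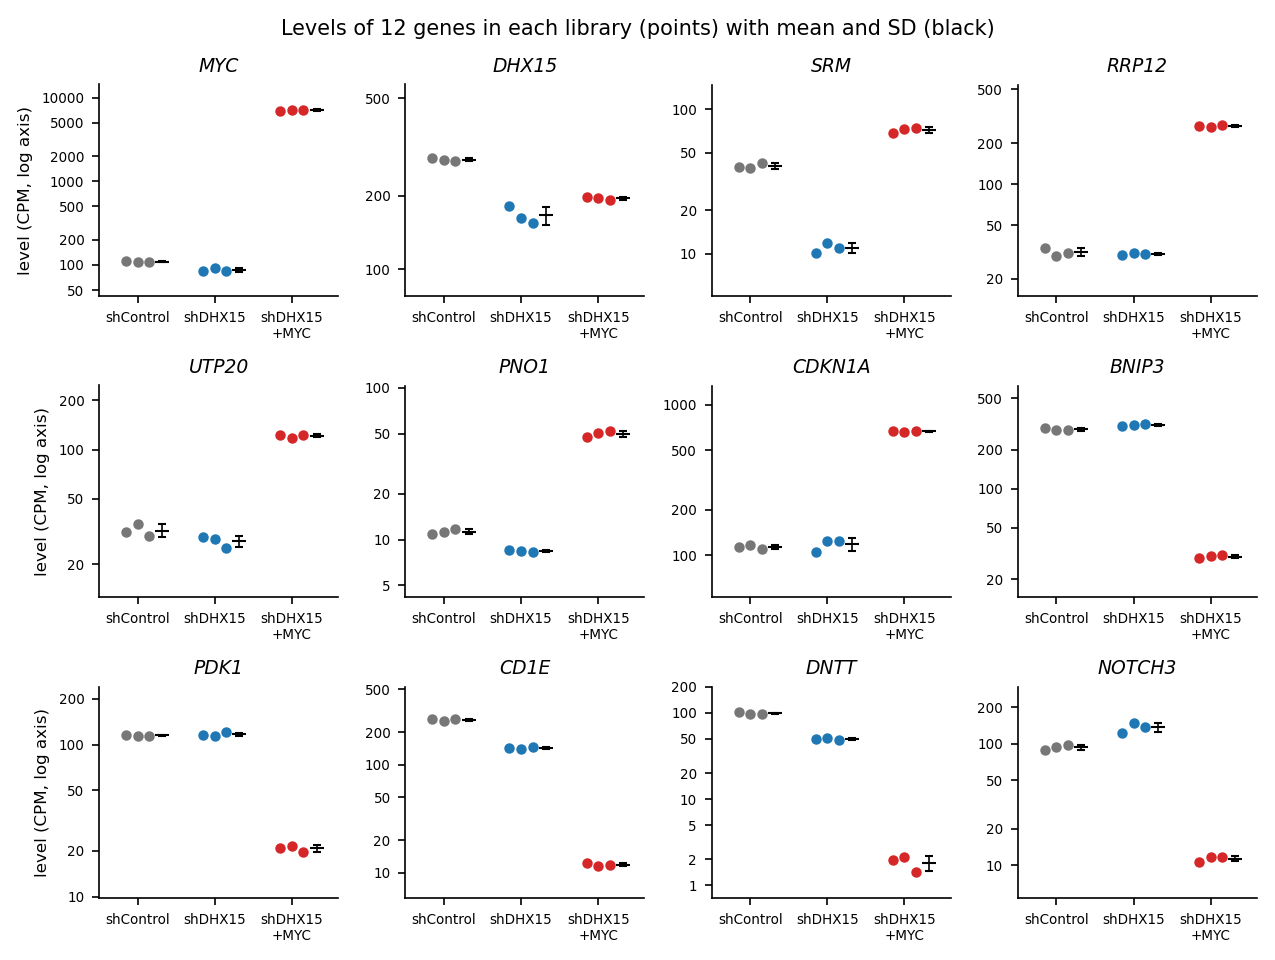
Level in each of the 9 libraries (points, CPM on a log axis) of 12 genes, with the mean and SD of 3 libraries in black; groups run along the horizontal axis. The shDHX15+MYC points of MYC, SRM, RRP12, UTP20, PNO1 and CDKN1A lie above those of both other groups, and those of BNIP3, PDK1, CD1E, DNTT and NOTCH3 below both.

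Most of the transcriptome moved. Of the 15169 genes tested, 6436 (42.4%) were called higher and 6369 (42.0%) lower with MYC, and 3331 (22.0%) and 2182 (14.4%) of all genes changed at least 2-fold. All 3 MYC libraries lay above all 3 shDHX15 libraries in 42.6% of genes and below them in 42.8%. The direction depended on the level of the gene. Among the 3010 genes with a mean log2 CPM under 1, 1963 were higher and 388 lower, with a median log2 fold change of 1.61. Such genes could pass the count filter through either group alone, and genes too low in both were not tested. Calls at this level therefore depend in part on the filter. Among the 10222 genes whose mean level was 3 log2 CPM or more, 3491 (34.2%) were higher and 5339 (52.2%) lower, with a median of -0.17, and 775 (7.58%) and 1517 (14.8%) of them moved at least 2-fold. Counts of gene groups are read against the shares of genes at their level, mostly these last ones, and a group near them is given for its members only. Scaling by total counts in place of TMM shifted all fold changes up by about 0.19 and gave 4489 higher and 4384 lower in that upper range. Changes smaller than this have no firm direction even between these scalings. Both scalings are relative, so every rise or fall here is one against the other genes and not an amount per cell. Counts under total-count scaling are given beside some groups. These are groups in which it moved the share of rises among called members by over 10 percentage points or turned the balance. A set of 578 genes had fewer than 10 counts in each shDHX15 library and at least 10 in each MYC library, and 88 genes had the opposite pattern.

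**Figure D2:**
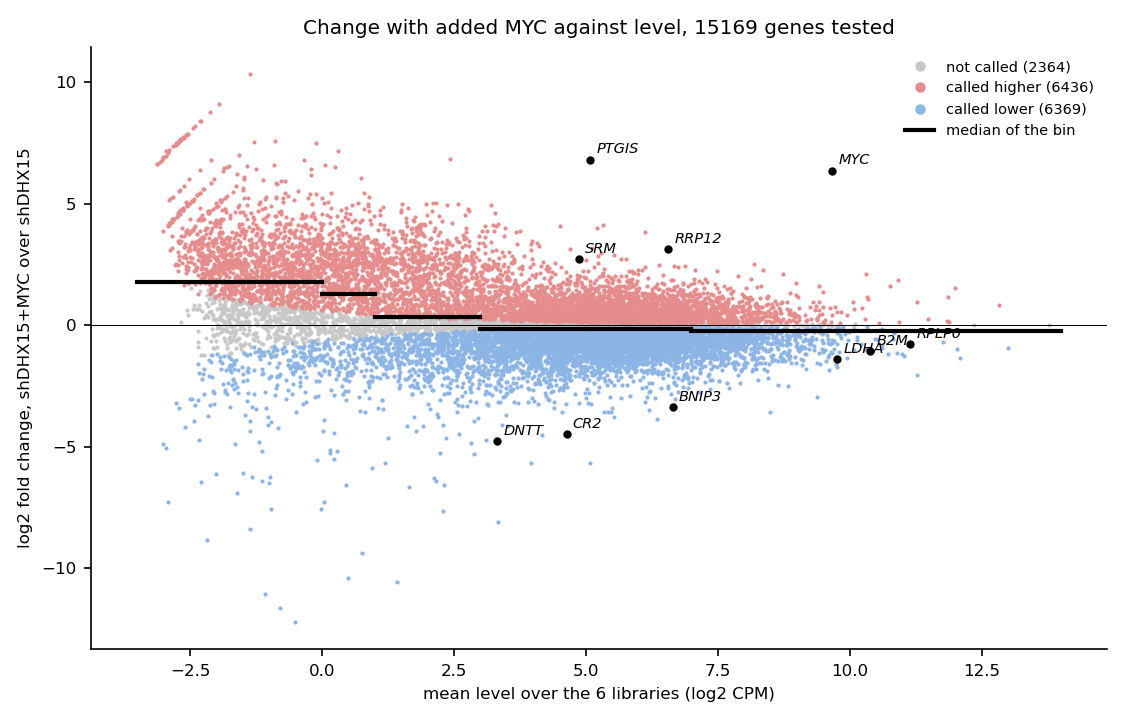
Log2 fold change of shDHX15+MYC over shDHX15 (vertical axis) against mean log2 CPM over the 6 libraries (horizontal axis), 1 point per gene tested, coloured by call, with the median of each level bin as a black bar. The bars fall from 1.76 in the lowest bin to -0.23 in the highest, and 10 named genes are marked in black.

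Genes of ribosome assembly rose almost as a block. In the list of the small subunit processome and pre-40S factors, all 49 members passed the count filter, 45 rose and 2 fell (median log2 fold change 1.07 and a range of -1.05 to 3.14). The 2 that fell were RRP7A and PWP2, whose counts are uncertain, since 0.8201 of its transcript windows are shared with another locus. The listed pre-60S factors of the large subunit did likewise: all 52 members passed the count filter, 50 rose and 1 fell (median log2 fold change 1.05 and a range of -0.19 to 2.70). The largest rise of either list was that of RRP12, a HEAT-repeat protein that helps export pre-40S particles, at 30.2, 30.9 and 30.4 CPM in shDHX15 and 267, 265 and 272 CPM with MYC. The 2 groups were separated by a wide gap, with a log2 fold change of 3.14 (SE 0.0386, edgeR adjusted p = 1.38e-15), and shControl stood with shDHX15 at 31.6 ± 2.07 CPM. PNO1, an assembly factor that guards the 3′ end of the small subunit's RNA, went from 8.56, 8.401 and 8.33 CPM to 47.5, 50.7 and 51.9 CPM (2.58). UTP20, a scaffold of the processome, went from 29.5, 28.3 and 25.1 CPM to 122, 118 and 123 CPM (2.14).

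In the large subunit branch RPF2, which brings the 5S particle to the pre-60S subunit, rose from 11.2 ± 1.07 to 71.9 ± 2.06 CPM (log2 fold change 2.70) and GNL2 from 41.9 ± 0.233 to 173 ± 3.05 CPM (2.06; mean ± SD, n = 3 here and below). The nucleolar helicase DDX21 rose by 2.03, the RNA methyltransferase NOP2 by 1.72, PES1 of the PeBoW complex by 1.58 and the nucleolar GTPase GNL3 by 1.42. The other PeBoW members moved less, WDR12 by 0.72 and BOP1 by 0.20. Among processome members BMS1, a GTPase, rose by 1.69, BYSL by 1.19, NOP14 by 1.01 and HEATR1 by 0.84. RRP7A went the other way, from 112 ± 1.31 to 79.9 ± 4.78 CPM (-0.48), and DDX54 was at -0.19, within the shift between scalings.

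RNA polymerase I and its initiation factors, which make the ribosomal RNA precursor, were mostly higher: 14 of 21 rose and 2 fell, with a median of 0.43 and a range of -0.56 to 1.60. Both large subunits rose, POLR1B by 1.60 and POLR1A by 1.49, as did POLR1C by 1.55, a subunit shared with polymerase III. The small shared subunit POLR1D and the initiation subunit TAF1C were the falls, by 0.56 and 0.15, although TAF1C lay above 0 under total-count scaling. UBTF, the architectural factor of the rDNA, was not called (213 ± 10.8 and 199 ± 4.31 CPM, log2 fold change -0.09, edgeR adjusted p = 0.0526). RRN3, the polymerase's initiation factor, rose by 1.04, with 0.279 of its transcript windows shared with another locus, so its counts are uncertain. Of the proteins of small nucleolar ribonucleoprotein particles, 13 of 19 rose and 6 fell, with a median of 0.38, or 13 higher and 3 lower under total-count scaling. NOP58 rose by 1.89, NOLC1 by 1.53 and NOP56 by 1.17, while the methyltransferase FBL reached 0.21 and the pseudouridine synthase DKC1 0.35. SHQ1, a chaperone of DKC1, fell by 0.36.

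The ribosomal proteins themselves went down. Of the large subunit's proteins 2 of 46 rose and 40 fell, with a median of -0.64 and a range of -1.55 to 0.22. Of the small subunit's proteins 1 of 32 rose and 28 fell, with a median of -0.67. RPL3 stood at 2149, 2036 and 2059 CPM in shDHX15 and 1088, 1078 and 1079 CPM with MYC, with 2799.99 ± 6.72 CPM in shControl. The groups did not overlap, the log2 fold change was -0.93 (SE 0.0325, edgeR adjusted p = 6.57e-12), and the level with MYC was the lowest of the 3 groups. RPS6 went from 1556, 1488 and 1479 CPM to 875, 858 and 884 CPM (-0.78), also without overlap. Among the larger falls of genes with little or no shared sequence were RPL37 (-1.55), RPL27A (-1.40), RPS25 (-1.60) and RPS15A (-1.33). RPL18 rose by 0.22. RPL4 rose by 0.08, a call that 8 of the 15 alternative settings lost. Under total-count scaling the counts were 6 higher and 36 lower for the large subunit and 3 higher and 23 lower for the small one. Many of these genes have processed pseudogenes: 11 of the large and 6 of the small subunit's proteins shared at least 0.2 of their transcript windows with another locus. Genes with that much shared sequence tended to be lower in general, with a median log2 fold change of -0.50 for the 262 genes at 0.2 to under 0.8 and of -2.81 for the 82 genes at 0.8 or more, against 0.04 for the 13341 genes with none. In a refit of genes below 0.2 the large subunit had 1 higher and 30 lower of 35 (median -0.66) and the small subunit 1 higher and 23 lower of 26 (median -0.72). Whether all libraries were counted in the same way is not given in the sources used here, so values of genes with shared sequence are uncertain. RPL37, RPL27A and RPS15A had shares of 0, 0.0861 and 0. Only windows that match another locus without a mismatch are counted, so a low share does not exclude copies that differ slightly.

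**Figure D3:**
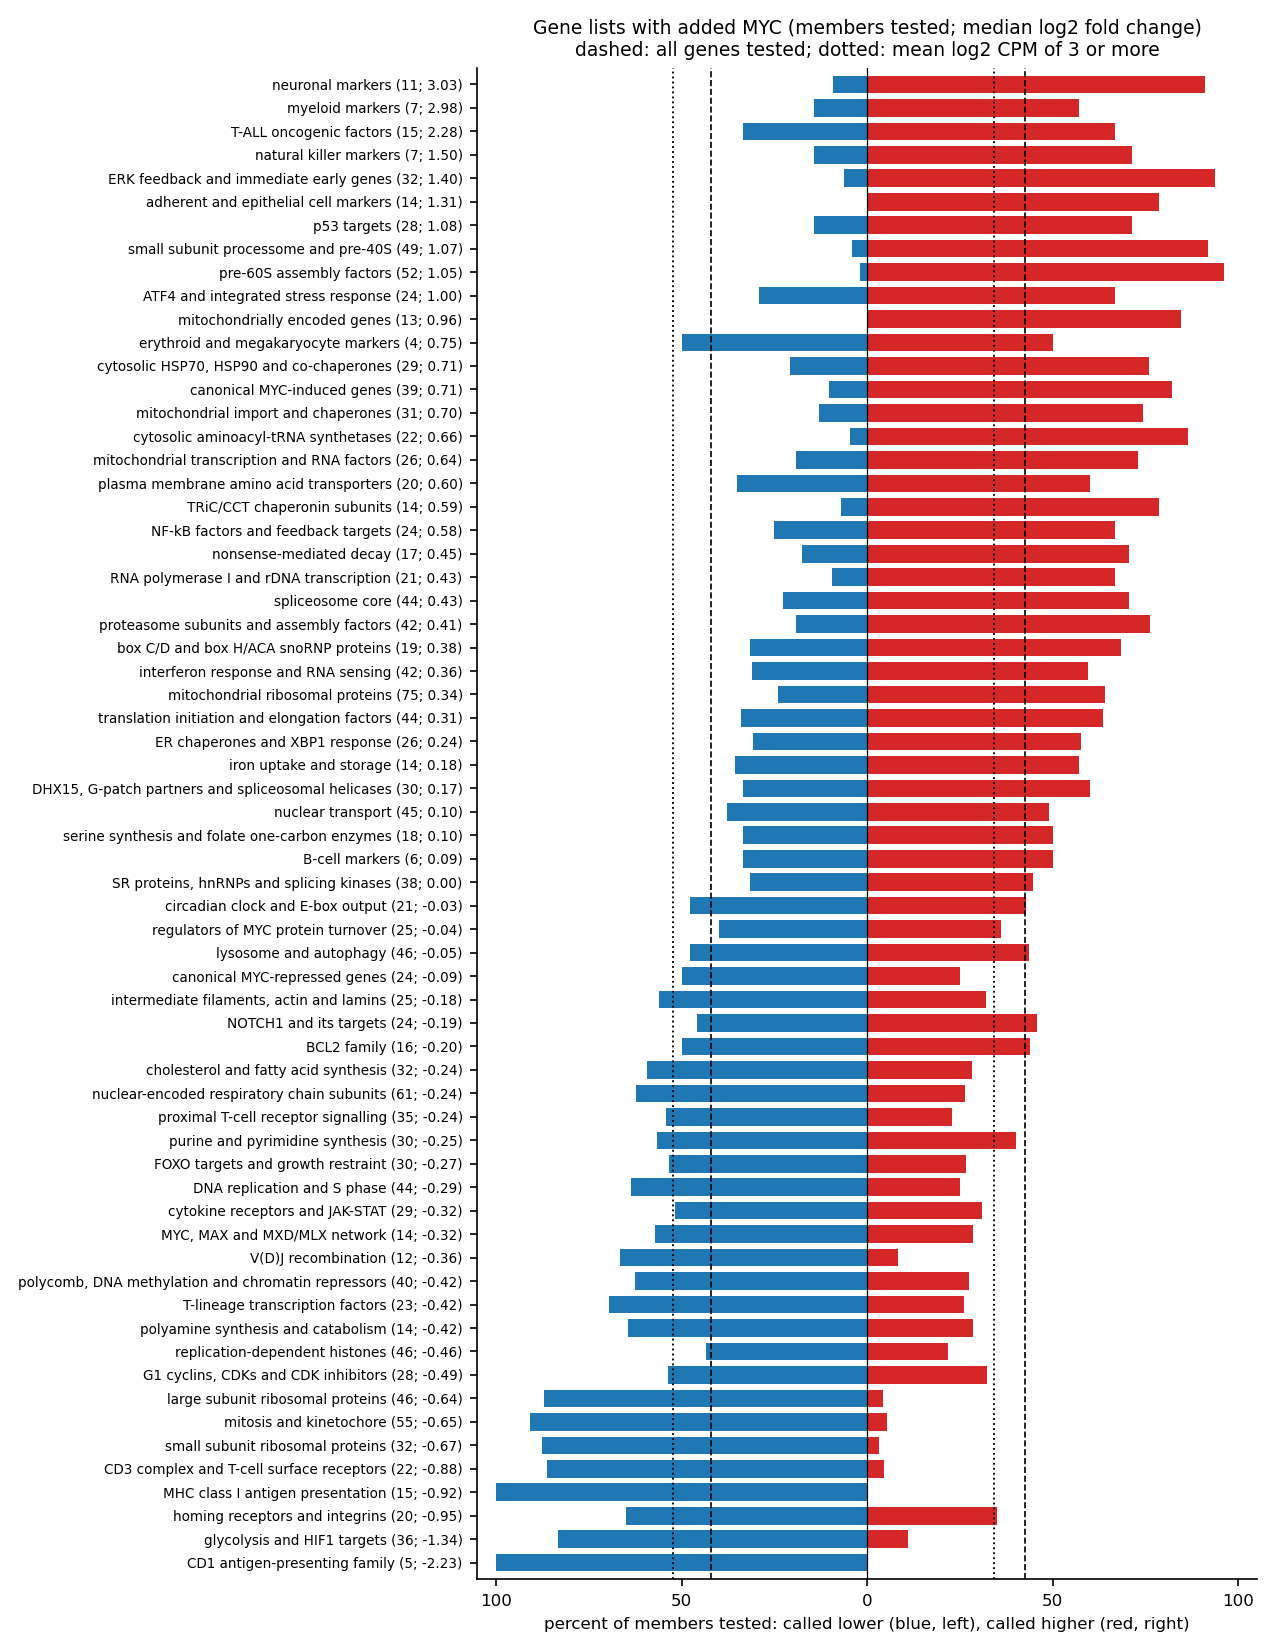
Percent of the members tested of each of 64 gene lists called lower (blue, to the left) and higher (red, to the right) with MYC, ordered by median log2 fold change; each label gives the number of members tested and that median. Dashed lines mark 42.0% lower and 42.4% higher over all genes tested, and dotted lines 52.2% and 34.2% over genes at a mean level of 3 log2 CPM or more; assembly factors of both subunits stand near the top and the ribosomal proteins near the bottom.

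Translation factors were mixed: 28 of 44 rose and 15 fell, with a median of 0.31 and a range of -1.65 to 1.72. The scaffold EIF4G1 rose from 269 ± 12.3 to 883 ± 10.3 CPM (1.72), its relative EIF4G3 by 1.51, EIF2B2, a subunit of the exchange factor for EIF2, by 1.41, EIF3B by 1.11 and the helicase EIF4A1 by 0.77. EIF3 was split, since its subunits EIF3E and EIF3L fell by 1.65 and 1.14. EEF2K, the kinase that halts elongation, fell by 1.52, and the cap-binding protein EIF4E was not called (-0.11, edgeR adjusted p = 0.0718). Of the enzymes that charge tRNAs, 19 of 22 rose and 1 fell, with a median of 0.66 and a range of -0.76 to 2.17. WARS rose from 27.2 ± 0.497 to 121 ± 0.422 CPM (2.17), VARS by 1.69, IARS by 1.52 and the scaffold AIMP2 by 1.73, and QARS fell by 0.76.

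Mitochondrial genes divided by function. Protein import and folding was mostly higher: 23 of 31 rose and 4 fell, with a median of 0.70 and a range of -0.47 to 1.74. Among those that rose were TIMM44 (1.74), the outer membrane pore TOMM40 (1.71), PHB (1.49), TIMM50 (1.21) and the matrix chaperone HSPA9 (1.20). TOMM20, TOMM22, TOMM7 and PMPCB were the falls, by 0.47 or less, and the calls of TOMM7 and PMPCB were lost under total-count scaling. Of the mitochondrial ribosomal proteins 48 of 75 rose and 18 fell, with a median of 0.34 and a range of -1.45 to 1.56, led by MRPL1 (1.56), MRPS2 (1.35) and MRPL4 (1.27), with MRPL34 (-1.45) and MRPL55 (-1.11) at the other end. Of the factors of mitochondrial transcription and RNA handling 19 of 26 rose and 5 fell, with a median of 0.64 and a range of -1.26 to 2.21, with SUPV3L1 (1.82) and PNPT1 (1.49), which together degrade mitochondrial RNA, the packaging factor TFAM (0.81) and LRPPRC (0.63). The nuclear-encoded subunits of the respiratory chain did not share this rise: 16 of 61 rose and 38 fell, with a median of -0.24 and a range of -1.51 to 1.17, and under total-count scaling 20 higher and 25 lower. Cytochrome c, CYCS, rose by 1.17, while COX5B fell by 1.51 and COX8A by 1.00.

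The mitochondrial genome's own messages were higher. Mitochondrially encoded genes took 3.67% to 3.87% of all counts in shDHX15 and 6.59% to 6.66% in shDHX15+MYC (3.77% ± 0.0985 and 6.64% ± 0.0363, SD, n = 3). The groups did not overlap, and the exact permutation test, 2-sided, gave p = 0.1, the smallest that 3 against 3 allows. Of the 13 protein-coding genes on that genome, edgeR called 11 higher and 0 lower, the latter also 0 at an unadjusted p under 0.05 and 0 by DESeq2. MT-ND1 went from 610.2, 582 and 585 CPM to 2489, 2534 and 2578 CPM (2.11), with no overlap, and MT-CYB rose by 1.15. MT-CO1 stayed uncalled at 13486 ± 271 and 13623 ± 181 CPM (0.02, edgeR adjusted p = 0.433). For MT-CO1 and MT-ND2, 0.276 and 0.316 of the transcript windows are shared with another locus. These messages take a larger share of the libraries with MYC, and the part of library quality in that was not tested. The labels give no batch of preparation or sequencing, so a batch that coincides with the groups cannot be told apart from MYC.

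Enzymes of nucleotide, polyamine and one-carbon metabolism, often named as MYC targets, did not move as one. For purines and pyrimidines, 12 of 30 rose and 17 fell, with a median of -0.25. NME1, a nucleoside diphosphate kinase, stood at 35.7, 34.5 and 32.8 CPM in shDHX15 and 188, 189 and 193 CPM with MYC (2.48), well clear of each other. UMPS rose by 1.28, CAD, which starts pyrimidine synthesis, by 0.55, CTPS1 by 0.53 and PPAT, which commits to purine synthesis, by 0.35. DCK, the salvage kinase for deoxynucleosides, fell from 238 ± 9.56 to 52.5 ± 3.09 CPM (-2.17), PRPS2 by 1.69, PAICS by 0.52 and IMPDH2 by 0.29. In the polyamine list, 4 of 14 rose and 9 fell, with a median of -0.42 and a range of -1.51 to 2.71. ODC1, the first enzyme of the pathway, rose by 0.71 and AMD1, which supplies the aminopropyl groups, by 0.54, beside SRM above, whereas SMS, which makes spermine from the product of SRM, fell by 0.94 and SAT1, which acetylates polyamines for export, by 0.65. Of the serine and folate enzymes 9 of 18 rose and 6 fell, with a median of 0.10 and a range of -2.58 to 1.90, with MTHFD1L at 1.20 and AMT of the glycine cleavage system at -2.58, and MTHFD2 was not called (-0.08, edgeR adjusted p = 0.0864).

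Amino acid transporters and targets of the stress-responsive factor ATF4 were mostly higher. Of the transporters, 12 of 20 rose and 7 fell, with a median of 0.60, or 12 higher and 3 lower under total-count scaling. The heavy chain SLC3A2 stood at 142, 147 and 140.1 CPM in shDHX15 and 691, 687 and 708 CPM with MYC (2.29), and its light chain SLC7A5, which imports leucine, at 187, 204 and 210.5 CPM and 859, 853 and 836 CPM (2.09). Neither overlapped between the groups. The cystine carrier SLC7A11 rose by 2.53 and the glutamine carrier SLC1A5 by 1.20, while SLC38A2 fell by 0.97. In the ATF4 list 16 of 24 rose and 7 fell, with a median of 1.00 and a range of -2.18 to 2.66, or 17 higher and 4 lower under total-count scaling, with ATF4 itself at 0.97, CHAC1, which degrades glutathione, at 2.30, the phosphatase subunit PPP1R15A at 2.26, TRIB3 at 1.54 and asparagine synthetase ASNS at 1.03. DDIT4, an inhibitor of mTORC1, fell from 448 ± 1.27 to 127 ± 5.27 CPM (-1.82).

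Protein folding and turnover genes were mostly higher. Of the HSP70 and HSP90 list 22 of 29 rose and 6 fell, with a median of 0.71 and a range of -0.70 to 1.94, with HSPH1 at 1.62, HSP90AA1 at 1.16, HSP90AB1 at 0.95 and the exchange factor HSPBP1 at 1.94. HSPA8, the constitutive HSP70, went from 909 ± 12.6 to 1481 ± 7.76 CPM (0.71) and stood at 2345 CPM in shControl. Of the TRiC chaperonin list 11 of 14 rose and 1 fell, with a median of 0.59 and a range of -0.76 to 0.97, led by CCT7 (0.97), with the prefoldin subunit PFDN5 as the fall. Of the proteasome genes 32 of 42 rose and 8 fell, with a median of 0.41 and a range of -1.49 to 1.49, led by the ubiquitin receptor ADRM1 (1.49) and the nuclear activator PSME3 (1.28), whereas the interferon-inducible forms PSME1, PSMB10, PSMB8 and PSMB9 fell by 1.49, 0.88, 0.71 and 0.57. Of the ER list 15 of 26 rose and 8 fell, with a median of 0.24 and a range of -0.85 to 1.56, or 17 higher and 5 lower under total-count scaling, with HSPA5 at 1.56 and CRELD2 at -0.85.

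Glycolysis and the targets of the hypoxia factor HIF1 fell, and widely. In this list 4 of the 36 tested (37 listed) rose and 30 fell, with a median of -1.34 and a range of -3.57 to 0.84, and 22 of the falls were at least 2-fold. BNIP3 stood at 304, 311 and 315 CPM in shDHX15 and 29.01, 30.1 and 30.8 CPM with MYC, with 289 ± 6.55 CPM in shControl. The groups did not overlap and the fold change was -3.36 (SE 0.0406, edgeR adjusted p = 1.35e-15). PDK1, the kinase that holds pyruvate back from mitochondria, went from 115, 114 and 120.2 CPM to 21.1, 21.7 and 19.5 CPM (-2.48). LDHA, lactate dehydrogenase and a textbook MYC-induced gene, went from 1423, 1326 and 1309 CPM to 499.8, 516 and 524 CPM (-1.39). In each of these 3 genes the MYC libraries were the lowest of the 9. The aldolase ALDOC fell by 3.57, the mitophagy receptor BNIP3L by 3.16, hexokinase HK2 by 1.91, PGK1 by 1.83, and the glucose carriers SLC2A3 and SLC2A1 by 1.12 and 1.04. SLC16A1, a lactate carrier, rose by 0.84, PKM by 0.26 and the message of HIF1A, the regulated subunit of the factor, by 0.30. Of the cholesterol and fatty acid genes 9 of the 32 tested (33 listed) rose and 19 fell, with a median of -0.24, and 12 higher and 13 lower under total-count scaling; SCD and ELOVL5 fell by 1.17 and 1.32.

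Mitotic genes were mostly lower. Of the mitosis and kinetochore list 3 of 55 rose and 50 fell, with a median of -0.65 and a range of -1.99 to 0.87, and under total-count scaling 6 higher and 48 lower. CDK1, the mitotic kinase, stood at 210.3, 173 and 178 CPM in shDHX15 and 91.98, 89.3 and 86.1 CPM with MYC (-1.06), without overlap, and 155 ± 2.99 CPM in shControl. TOP2A fell by 0.78, CENPF by 0.61, AURKB by 0.72, CCNB1 by 0.49, SPC24 by 1.99 and BUB1 by 1.49, and MYBL2, a factor that drives mitotic genes, rose by 0.87, with KIF20B at 0.57 and MKI67 at 0.23. Of the replication list 11 of 44 rose and 28 fell, with a median of -0.29 and a range of -1.38 to 1.31, or 16 higher and 22 lower under total-count scaling, with MCM2 (0.04) and PCNA (0.01) uncalled (edgeR adjusted p = 0.381 and 0.776), CDT1 at -1.28, PRIM1 at -1.38 and GINS3 at 1.31. Among G1 regulators 9 of 28 rose and 15 fell, with a median of -0.49, close to the shares of all genes at that level. CCND2, cyclin D2, rose from 4.89 ± 0.655 to 28.7 ± 0.218 CPM (2.56) and the phosphatase CDC25A by 1.51. CCND3, cyclin D3, fell from 1021 ± 94.7 to 466 ± 7.54 CPM (-1.12), CDK6 by 0.61 and E2F1 by 0.64, while CDK4 was not called (0.05, edgeR adjusted p = 0.229).

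The inhibitors of the cycle divided. CDKN1A, which encodes p21 and is usually listed as repressed by MYC, stood at 105, 125 and 125 CPM in shDHX15 and 668, 661 and 671 CPM with MYC, with 114 ± 3.04 CPM in shControl. It was higher in every MYC library, with a log2 fold change of 2.51 (SE 0.0570, edgeR adjusted p = 1.37e-13). CDKN1B, which encodes p27, went the other way, from 118, 121 and 115 CPM to 39.7, 41.5 and 39.3 CPM (-1.54), again without overlap. RBL2, a relative of the retinoblastoma protein, fell by 2.26. In the list of p53 targets 20 of 28 rose and 4 fell, with a median of 1.08, with GADD45A at 2.72, the death receptor TNFRSF10B at 2.72, the nuclease AEN at 2.22, MDM2 at 1.28 and BBC3 at 1.05. TP53INP1, DDB2 and CCNG1 of the same list fell by 1.83, 1.33 and 1.00.

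Curated lists of MYC responses showed how the textbook set behaved. Of the canonical MYC-induced genes 32 of 39 rose and 4 fell, with a median of 0.71: RRP12, SRM and CCND2 were at the top, NCL rose by 0.54, TFRC, the transferrin receptor, by 0.36, and the falls were those of HK2, LDHA and ENO1 (-0.70) with TERT, whose level was low (4.23 ± 0.428 and 0.716 ± 0.0804 CPM, -2.55). Of the canonical MYC-repressed genes 6 of the 24 tested (25 listed) rose and 12 fell, with a median of -0.09 and a range of -2.99 to 2.72, or 11 higher and 11 lower under total-count scaling. The share that fell was near the 52.2% of all genes at a mean level of 3 log2 CPM or more. Beside CDKN1A and GADD45A, the GTPase RHOB rose by 1.98. CCNG2 fell from 87.2 ± 3.13 to 10.9 ± 0.498 CPM (-2.99), PIK3IP1 by 2.44, YPEL3 by 2.43 and NDRG1 by 1.08, and TXNIP, an inhibitor of glucose uptake, was not called (-0.01, edgeR adjusted p = 0.913). Within the network around MYC, 4 of the 14 tested (15 listed) rose and 8 fell, with a median of -0.32 and a range of -1.31 to 6.36. Here too the share that fell was near that of all genes at that level. MXD4, an antagonist that competes for MAX, fell from 57.2 ± 5.04 to 22.9 ± 1.32 CPM (-1.31), MXD3 by 0.73, MXI1 by 0.43 and MLXIP, a sensor of glucose, by 0.70. MAX itself was at -0.22, close to the shift between scalings, and MGA, a MAX-binding repressor, rose by 0.34.

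E-boxes were counted in promoter windows from RefSeq, 250 bases before to 50 after the annotated start, for the 8216 tested genes with exactly 1 window. The motif searched was CACGTG, which reads the same on both strands. It stood in 7.28% of all 22114 such windows in the table and in 11.3% of the 5734 windows of tested genes whose mean level was 3 log2 CPM or more. Among those it was in 19.1% (85 of 445) of genes called at least 2-fold higher, 10.3% (81 of 788) of genes not called and 9.15% (71 of 776) of genes called at least 2-fold lower. Of the processome genes 18 of 42 held it, of the pre-60S factors 11 of 37 and of the canonical MYC-induced genes 11 of 22. Other lists that mostly rose held none: 0 of 20 for mitochondrial transcription and RNA factors, 0 of 15 for the HSP70 and HSP90 list, 0 of 9 for RNA polymerase I and 0 of 8 for TRiC. Of the ribosomal proteins it stood in 1 of 30 of the large and 1 of 23 of the small subunit. Genes of low level that rose at least 2-fold held it in 7.28% (68 of 934), the share of all windows in the table. Of the glycolysis list, in which most genes fell, 4 of 19 windows held it, BNIP3 among them. Some further lists that did not mostly rise held it as well. It stood in 5 of 18 windows of the purine and pyrimidine list and in 4 of 16 of the MYC-repressed genes. In the network around MYC it was in 3 of 8, and in a list of clock genes in 4 of 10. A match shows only that the letters are there.

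**Figure D4:**
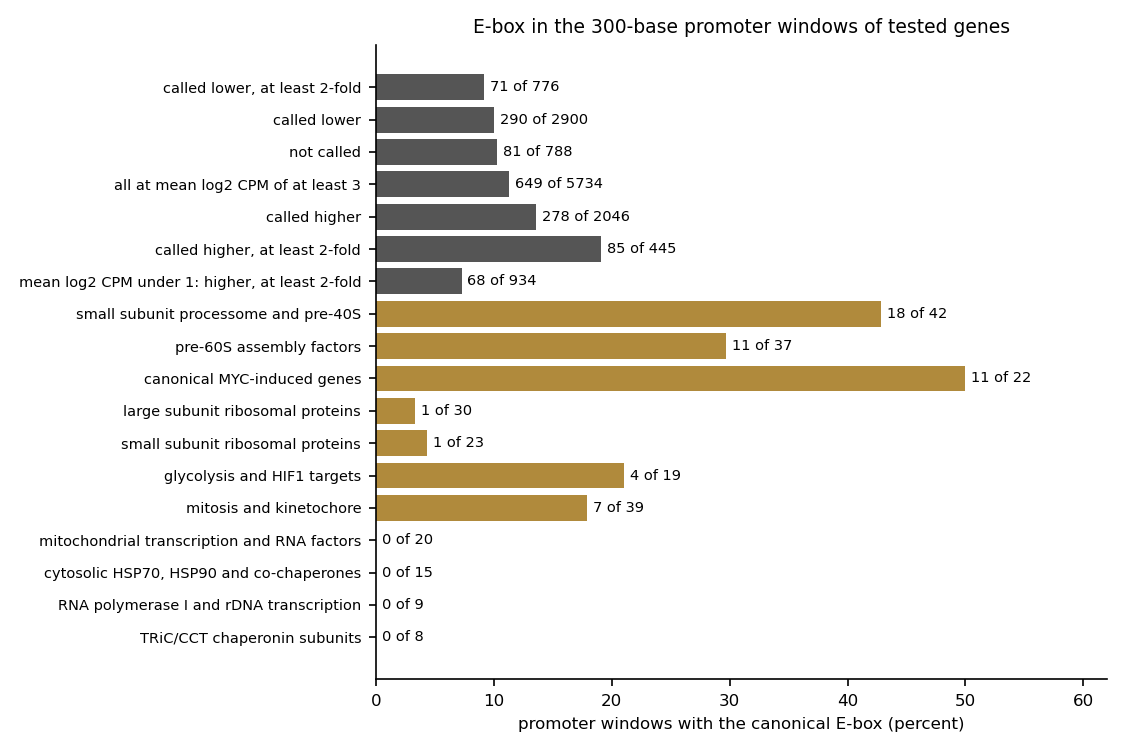
Percent of 300-base promoter windows that hold the canonical E-box (horizontal axis), by call among tested genes at a mean level of 3 log2 CPM or more (grey, with 1 bar for genes of low level) and by gene list (brown); labels give windows with the motif of all windows. The processome and MYC-induced lists have the longest brown bars, 18 of 42 and 11 of 22 windows, and the large and small subunit ribosomal proteins at 3.33% and 4.35%, while the 4 lists at the bottom have no bar.

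Genes that mark the T lineage were lower. The labelled cell type was checked with 12 T-cell markers. In the library where each was lowest, CD3D, CD3E, CD3G, CD247, CD2, CD5, CD7, LCK, TCF7, GATA3 and BCL11B stood at 35.9 CPM or more, and PTCRA at 0.0828 CPM, close to 0. Of the CD3 and T-cell surface list 1 of the 22 tested (27 listed) rose and 19 fell, with a median of -0.88. The rise was that of CD44 (0.25). PTPRC, the phosphatase CD45, stood at 381, 355 and 351 CPM in shDHX15 and 151, 151 and 144 CPM with MYC (-1.28), and CD2, an adhesion receptor, at 91.3, 85.7 and 86.1 CPM and 35.9, 36.1 and 38.6 CPM (-1.24). Both fell without overlap. CD3D fell by 0.68, CD3E by 0.57, CD247 by 1.01, the co-stimulatory receptor CD28 by 1.23, CD96 by 1.48 and CD99 by 1.60. CD99 was matched to no single locus, so its share of transcript windows found elsewhere is not known and its counts are uncertain. CD5 was not called (0.01, edgeR adjusted p = 0.785). In these bulk samples fewer cells of a kind and less RNA per cell cannot be told apart.

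Of the V(D)J recombination list, whose products cut and join antigen receptor genes in immature thymocytes, 1 of 12 rose and 8 fell, with a median of -0.36 and a range of -4.76 to 0.17, or 2 higher and 7 lower under total-count scaling. The rise was that of DCLRE1C (0.17). DNTT, the polymerase that adds bases at the joints of antigen receptor genes, stood at 50.3, 51.01 and 48.7 CPM in shDHX15, 1.94, 2.13 and 1.41 CPM with MYC and 98.03 ± 2.35 CPM in shControl, and fell by 4.76 (SE 0.102, edgeR adjusted p = 8.69e-14). The groups were far apart, and the MYC libraries held little of it. The CD1 family, which presents lipids on cortical thymocytes, fell in all 5 members tested, among them CD1E from 144, 139 and 145 CPM to 12.3, 11.6 and 11.8 CPM (-3.57), CD1B by 3.24, CD1D by 2.23, CD1C by 1.20 and CD1A by 0.36. RAG1 of the V(D)J recombinase fell by 2.13 from a low level of 4.10 ± 0.245 CPM, PTCRA, the pre-T-cell receptor chain, by 3.58 from 2.22 ± 0.456 CPM, and RAG2 was not called (0.633 ± 0.154 and 0.653 ± 0.241 CPM). LIG4, which seals the joints, fell by 1.33.

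Of the T-lineage transcription factors 6 of 23 rose and 16 fell, with a median of -0.42. BCL11B, needed for T commitment, stood at 243, 273 and 284 CPM in shDHX15 and 73.8, 69.3 and 69.1 CPM with MYC (-1.90). LEF1, a partner of beta-catenin, went from 491, 554 and 536 CPM to 177, 177 and 180.1 CPM (-1.55). Both fell in every MYC library. IKZF2 fell by 2.56, TOX by 1.60, ETS1 by 1.56, MYB by 1.32, SATB1 by 1.01, TCF7 by 0.84, RUNX1 by 0.82 and GATA3 by 0.40. RUNX3 rose from 121 ± 9.12 to 345 ± 8.39 CPM (1.52), IKZF3 by 1.52 and ID2, an inhibitor of E proteins, by 1.34. Of the genes of proximal T-cell receptor signalling 8 of 35 rose and 19 fell, with a median of -0.24 and a range of -2.85 to 1.29, or 15 higher and 15 lower under total-count scaling. The adaptor SH2D1A fell from 255 ± 8.61 to 35.2 ± 0.0839 CPM (-2.85), THEMIS by 2.25, ZAP70 by 0.99 and LCK by 0.61, and the adaptors LCP2 and LAT rose by 1.01 and 0.43.

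NOTCH1, the upstream driver in much of T-ALL, and its targets were divided: 11 of the 24 tested (25 listed) rose and 11 fell, with a median of -0.19. NOTCH3, a receptor that NOTCH1 itself induces, stood at 123, 148 and 137 CPM in shDHX15 and 10.7, 11.6 and 11.7 CPM with MYC, against 93.5 ± 4.45 CPM in shControl (-3.58). CR2, a complement receptor, went from 115, 112 and 113 CPM to 6.23, 4.51 and 4.39 CPM (-4.48). In both, every MYC library lay far below the lowest shDHX15 library. NOTCH1 fell by 0.57 and GIMAP5 by 1.64. DTX1, another direct target, rose from 248 ± 36.8 to 439 ± 6.51 CPM (0.83), HES1 from 2.28 ± 0.681 to 14.3 ± 0.403 CPM (2.67), and HES4 was not called (-0.03, edgeR adjusted p = 0.911). FBXW7, the ubiquitin ligase subunit that marks NOTCH1 and MYC protein for decay, rose by 0.43, and of the other regulators of MYC turnover the deubiquitinase USP36 rose by 1.38 and the ligase HUWE1 by 0.74, while USP28 fell by 1.37. In that list 9 of the 25 tested (26 listed) rose and 10 fell, with a median of -0.04 and a range of -1.37 to 1.38, or 13 higher and 10 lower under total-count scaling. Among T-ALL oncogenic factors 10 of the 15 tested (18 listed) rose and 5 fell, with a median of 2.28: LMO2 fell by 1.13, TAL1 by 1.10, ERG by 2.57, FLI1 by 1.25 and BCL11A by 1.42, and HOXA9 rose from 3.66 ± 0.371 to 22.4 ± 1.23 CPM (2.63), with most of the others that rose at lower levels still. The median level of this list was 0.82 log2 CPM. Of all genes at 0 to 1 log2 CPM, 64.8% were called higher and 17.2% lower, so the count of rises is near that share.

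Of the homing receptors and integrins 7 of 20 rose and 13 fell, with a median of -0.95. CXCR4, a chemokine receptor of marrow homing, stood at 334, 302 and 303 CPM in shDHX15 and 75.4, 79.1 and 76.1 CPM with MYC (-2.02), and the integrin chain ITGA4 at 289, 289.7 and 291 CPM and 48.1, 48.2 and 46.7 CPM (-2.59). In both, the groups lay far apart. CD47, the signal against phagocytosis, fell by 2.37 and the integrin chain ITGAL by 1.32, and the lymph node homing receptor CCR7 rose from 19.2 ± 0.595 to 52.5 ± 0.635 CPM (1.46). MHC class I and its loading machinery fell throughout the list: 0 of 15 rose and 15 fell, with a median of -0.92 and a range of -1.99 to -0.15, and 0 higher and 12 lower under total-count scaling; the number that rose was also 0 at an unadjusted p under 0.05 and 0 by DESeq2. B2M, the invariant light chain, went from 2009, 1779.6 and 1807 CPM to 863, 892 and 899 CPM (-1.07), HLA-E fell by 1.63, HLA-C by 0.75, ERAP1, which trims peptides, by 1.39 and NLRC5, the transactivator of these genes, by 1.15.

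Interferon and RNA-sensing genes did not follow MHC class I. Here 25 of 42 rose and 13 fell, with a median of 0.36. MX1, an antiviral GTPase, went from 5.26, 4.94 and 5.02 CPM to 42.1, 43.7 and 44.5 CPM (3.11), OAS1 rose by 2.68 and ISG20 by 2.04, whereas ISG15 was not called (-0.05, edgeR adjusted p = 0.357), IRF1 fell by 0.93, STAT2 by 1.09 and DHX58 by 1.27. In the NF-kB list 16 of 24 rose and 6 fell, with a median of 0.58 and a range of -0.50 to 3.30, with RELB at 1.77, NFKBIB at 1.93, LTB at 1.43 and BIRC3 at 1.12. Genes induced early by ERK and their feedback regulators rose almost without exception: 30 of 32 rose and 2 fell, with a median of 1.40. EGR1 stood at 47.2, 48.9 and 49.4 CPM in shDHX15 and 261, 265 and 265 CPM with MYC (2.45), and the ERK phosphatase DUSP6 at 101, 100.3 and 105 CPM and 247, 250.2 and 253 CPM (1.30), with 240.2 ± 2.68 CPM in shControl. JUN rose by 1.94, FOS by 1.13 and NR4A1 by 2.38, and the feedback inhibitor SPRY1 and the factor ETV5 fell by 0.85 and 1.05.

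Of the cytokine receptor and JAK-STAT list 9 of 29 rose and 15 fell, with a median of -0.32, or 13 higher and 14 lower under total-count scaling, close to the shares of all genes at that level. IL2RB rose from 32.3 ± 5.89 to 112 ± 1.25 CPM (1.80) and IL7R from 4.41 ± 0.827 to 9.35 ± 0.693 CPM (1.09). STAT5B fell from 442, 453 and 445 CPM to 125, 127 and 121 CPM (-1.84), with no overlap, STAT5A by 1.14 and the repressor BCL6 by 1.92. In the BCL2 family the survival members MCL1 and BCL2L1 rose by 0.79 and 0.71 and BCL2 fell by 0.61, while of the killers that carry a BH3 domain alone BBC3 rose and BCL2L11 and BMF fell by 1.07 and 1.48; 7 of 16 rose and 8 fell, with a median of -0.20. Of the targets of the growth-restraining FOXO factors 8 of 30 rose and 16 fell, with a median of -0.27 and a range of -2.99 to 3.57, or 13 higher and 15 lower under total-count scaling, and TSC22D3 and ARRDC3 fell by 2.53 and 1.85.

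Of DHX15, its G-patch partners and the other spliceosomal helicases 18 of 30 rose and 10 fell, with a median of 0.17 and a range of -1.59 to 2.55. GPATCH4, a nucleolar G-patch protein, stood at 14.1, 15.8 and 15.02 CPM in shDHX15 and 87.1, 84.97 and 89.7 CPM with MYC (2.55), with 21.8 ± 1.52 CPM in shControl, so that the groups were well separated. PINX1, which binds telomerase and carries a G-patch, rose by 1.62, NKRF, the partner of DHX15 in ribosomal RNA processing, by 0.99, SUGP1 by 0.72 and TFIP11, the partner in spliceosome disassembly, by 0.40. PINX1 was matched to no single locus, so its shared part is not known. SUGP2 fell from 499.8 ± 11.5 to 165 ± 5.89 CPM (-1.59). Of the spliceosome core 31 of 44 rose and 10 fell, with a median of 0.43 and a range of -4.51 to 1.56, with the arginine methyltransferase PRMT5 at 1.56, its cofactor WDR77 at 1.06 and SF3B4 at 1.28, and with LSM4 at -1.14. U2AF1, which reads the end of the intron, had the lowest value of the list (-4.51), but 0.903 of its windows are shared with another locus and its counts are uncertain. Of the SR proteins and hnRNPs 17 of 38 rose and 12 fell, with a median of 0.00, or 27 higher and 9 lower under total-count scaling, with HNRNPM at 1.02, the kinase SRPK2 at -1.46 and SRSF5 at -1.07. In nonsense-mediated decay 12 of 17 rose and 3 fell, with a median of 0.45 and a range of -0.50 to 1.45, led by UPF3B (1.45).

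The genes that moved most, by the rule for naming, were largely outside these lists. Highest was PTGIS, prostacyclin synthase, with 2.49, 3.68 and 3.03 CPM in shDHX15 and 343, 352 and 347 CPM with MYC, against 11.3 CPM on average in shControl. Its log2 fold change of 6.82 (SE 0.0805, edgeR adjusted p = 1.24e-15) exceeded that of MYC itself. The next were DMKN, dermokine, from 1.59 ± 0.385 to 48.6 ± 1.67 CPM (4.93), HDC, which makes histamine, from 1.87 ± 0.0771 to 46.1 ± 0.9295 CPM (4.64), the protease PCSK6 (4.16), PVR, a ligand of natural killer receptors (4.13), the collagen chain COL6A3 (4.09), AOC3 (4.07), ENPP1 (4.07), the kinase WNK4 (4.01), the ubiquitin hydrolase UCHL1 and B4GALT2 (3.89). These genes were at 1.59 to 8.92 CPM in shDHX15, MYC set aside. At the lower end, after DNTT and CR2, came ARPP21 (-4.13), PPFIA4 (-4.13), the adhesion receptor ADGRG1 (-3.80), MYO7B, a myosin, from 1206 ± 81.8 to 100.4 ± 1.46 CPM (-3.58), NOTCH3, SMIM24 (-3.57), CD1E, ALDOC, MZB1 (-3.47) and PHF7 (-3.39). In all 24 genes the 2 groups did not overlap, which the rule itself required.

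**Figure D5:**
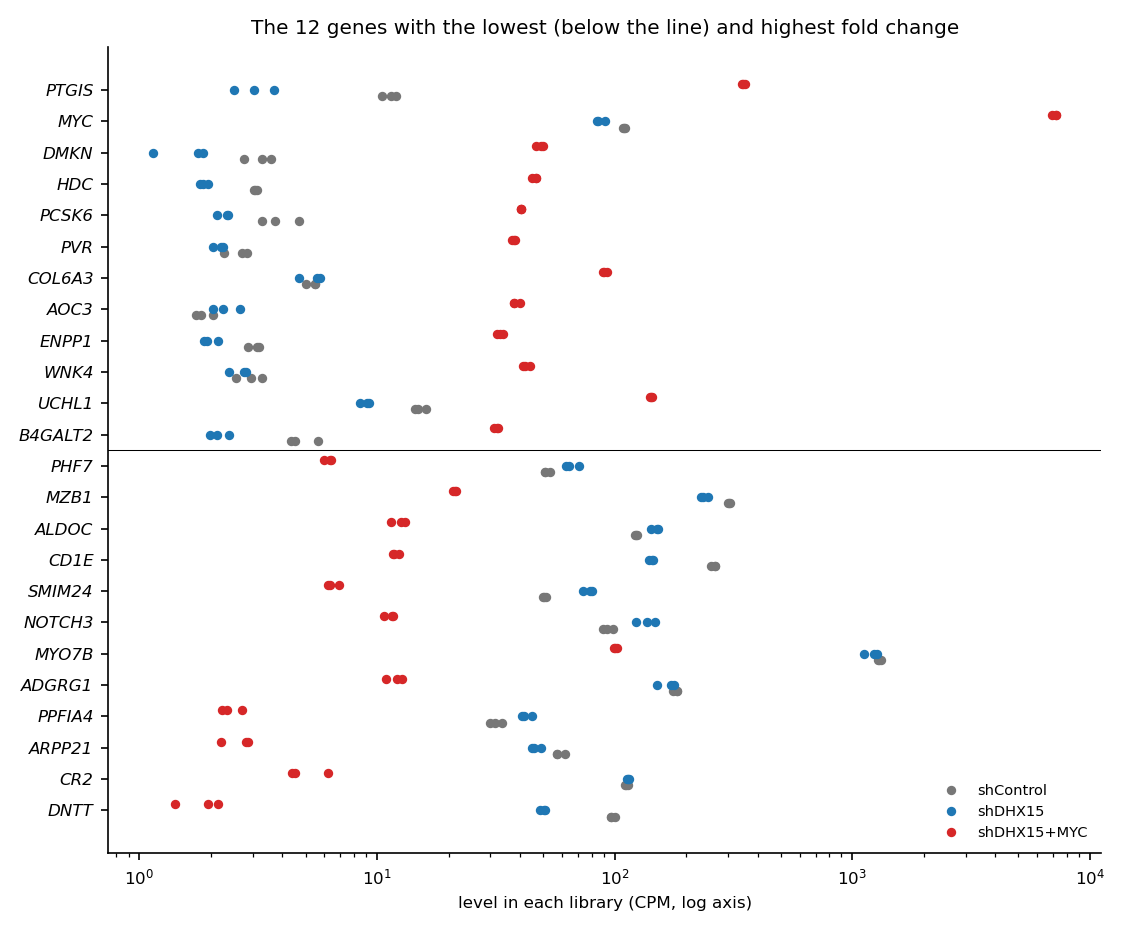
Level in each library (points, CPM on a log axis) of the 12 genes with the highest (upper part) and the 12 with the lowest fold change by the naming rule, coloured by group. In the upper part the shDHX15+MYC points lie to the right of both other groups, and in the lower part to the left.

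Markers of other cell types were read in the same libraries. Of 12 B-cell markers 6 passed the count filter, of 15 myeloid markers 7, of 11 natural killer markers 7, of 15 erythroid and megakaryocyte markers 4, of 19 adherent and epithelial markers 14 and of 19 neuronal markers 11. Their calls were 3 higher and 2 lower, 4 higher and 1 lower, 5 higher and 1 lower, 2 higher and 2 lower, 11 higher and 0 lower and 10 higher and 1 lower, in that order. A gene passed the filter if its counts were high enough in either group alone. Markers near 0 in shDHX15, such as PAX5 and CSF1R, could thus be tested only through the MYC libraries. For these the direction of a call was largely fixed by the filter. The median levels of these lists ran from -1.07 to 1.21 log2 CPM. Of all genes under 1 log2 CPM, 65.2% were called higher and 12.9% lower, and of those at 1 to 3 log2 CPM 50.7% and 33.1%. The summed level of each list ran from 53.1 to 56.7 CPM in shDHX15 and 106 to 110.3 CPM with MYC for B-cell, 13.7 to 14.7 CPM in shDHX15 and 19.9 to 23.4 CPM with MYC for myeloid, 38.7 to 41.2 CPM in shDHX15 and 115 to 119.9 CPM with MYC for natural killer, 23.1 to 25.3 CPM in shDHX15 and 12.8 to 13.2 CPM with MYC for erythroid, 24.3 to 26.6 CPM in shDHX15 and 70.3 to 72.7 CPM with MYC for adherent and 46.7 to 54.1 CPM in shDHX15 and 184 to 188 CPM with MYC for neuronal markers. The defining markers given next were low in both groups and called higher with MYC, but other members of all lists except the adherent one fell. The lowest log2 fold change was -3.46 in the B-cell, -3.42 in the myeloid and -2.39 in the natural killer list. It was -1.40 in the erythroid and -1.60 in the neuronal list. PAX5 stood at 0.0398 ± 0.0426 CPM in shDHX15 and 0.435 ± 0.0854 CPM with MYC, CD14 at 0.347 ± 0.161 and 2.73 ± 0.1996 CPM, EPCAM at 1.195 ± 0.214 and 2.28 ± 0.245 CPM and SNAP25 at 0.0115 ± 0.01996 and 0.281 ± 0.0272 CPM. CSF1R had 0 counts in each shDHX15 library and stood at 1.104 ± 0.1496 CPM with MYC. With MYC, most of the B-cell sum was CD79A (37.4 ± 1.09 to 99.9 ± 2.44 CPM) and most of the natural killer sum NKG7 (35.2 ± 2.00 to 99.05 ± 3.43 CPM). Most of the neuronal sum was UCHL1 (8.92 ± 0.389 to 142 ± 1.54 CPM). KRT18 (4.46 ± 0.394 to 15.9 ± 0.587 CPM) was a smaller part of the adherent sum. The part of such messages in the rise of genes of low level was not tested.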

How the data were processed

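Read counts per gene, whole numbers with no scaling, were deposited by the authors for 17637 genes and 9 libraries. Alignment with HISAT2 2.2.1 to hg38, FastQC 0.11.9 and DESeq2 1.32.0 are listed in the submitters' processing notes. Which program counted reads, and on which annotation, is not given in the sources used here. Per the labels' protocols, poly(A) RNA was read from both ends for 150 bases. Columns were joined to samples by name. Those named for a GFP hairpin were taken as shControl, and those named for hairpin 1 as DHX15 knockdown, since the labels give no other target.

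The 6 libraries of the comparison were filtered with filterByExpr, scaled by TMM and fitted with edgeR 4.0.16 (glmQLFit and glmQLFTest, 2-sided) in R 4.3.3, with no covariate. The SE of a fold change was derived from that test, as the absolute log2 fold change over the square root of its F statistic. Levels use TMM factors over all 9 libraries, so their ratios differ slightly from the fitted fold changes. A count of 0 allows up to 3 counts, which in these libraries are 0.0519 to 0.0708 CPM; such limits cover counting error only. Symbols were matched to GENCODE 29 (96.8% matched) for coordinates and shared sequence: windows of 100 bases every 50 bases of the transcripts, found without a mismatch in a transcript of another locus. Of 1779 symbols in 64 lists, 1739 matched directly, 17 by an older symbol and 23 did not. The fit was also run on simulated counts of the 15169 genes, with 50 genes changed at each fold, up or down, and the rest unchanged. The count filter left 14207 of them to be tested, and a changed gene that it removed was taken as not recovered. It recovered 56% at 1.25-fold, 70% at 1.5-fold and 86% at 2-fold and at 4-fold, and 5.7% of its calls were unchanged genes. In the data most genes moved, so these rates do not carry over to the calls above and did not test the scaling.

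The members and lists were chosen with earlier results of these data known. Genes named are MYC, DHX15, SRM, the anchor genes of each list, up to 3 members per list and direction with the largest change, and the 12 highest and 12 lowest overall. The last 2 kinds needed a call and a mean level of 3 log2 CPM or more, and the overall ends also groups that do not overlap and a shared part under 0.2. PWP2, TAF1C, RPL4, TOMM22, TOMM7, PMPCB, PFDN5, KIF20B, MKI67, DCLRE1C and CD44, where outside this rule, were named after their values were seen, to complete small counts. A few genes are not reported here. Same-numbered libraries did not deviate together (r across genes 0.0130, -0.00193 and -0.00153), so the numbers were not used as pairs. Alternatives were other scalings, filters and folds, DESeq2 1.42.0, a fit of all 9 libraries, a replicate block, single-locus genes and each replicate left out.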

Additional observations from a re-analysis of the deposited data

How the results depend on the processing

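The 6436 genes called higher and 6369 called lower became 6411 and 6205 with DESeq2, 6438 and 6528 with all 9 libraries in the fit, 7606 and 5268 under total-count scaling, and 7499 and 5362 with TMM factors from abundant genes, an alternative chosen after seeing the data. Leaving out 1 replicate gave 6244 to 6638 higher and 6168 to 6566 lower. A replicate block, for numbers that did not pair the libraries, gave 6337 higher and 6292 lower. Requiring a 2-fold change left 3331 higher and 2182 lower. Of the gene lists, nuclear-encoded respiratory chain genes called lower fell from 38 to 25 under total-count scaling, under TMM factors from abundant genes and in a fit of genes whose mean level was 3 log2 CPM or more. SR protein and hnRNP genes called higher went from 17 to 27 and 26 under the first 2 of these. In that last fit fewer members were tested: the 1 histone gene left, HIST1H2BK, rose, so that 0 were called lower, and the 1 erythroid marker left, TAL1, fell, so that 0 were called higher. Called higher there were 1 of 6 T-ALL factors, 6 of 17 NOTCH1 genes, the 1 B-cell, 1 myeloid and 1 natural killer marker left, 2 of 2 adherent markers and 1 of 2 neuronal markers. Of genes not called, ISG15, MTHFD2 and TXNIP turned to 0.14, 0.11 and 0.18 under total-count scaling, to 0.12, 0.10 and 0.17 with TMM factors from abundant genes and to 0.13, 0.10 and 0.17 in the last fit, and UBTF turned to 0.10 under total-count scaling. Each of them was called higher in those settings. TAF1C, called lower, turned to 0.042, 0.026 and 0.035 under the same 3 settings. Of the 349 genes named, 21 had another call or sign under at least 1 of the 15 alternatives. Of the called ones, CD7, DDX54, MAX, PMPCB and TOMM7 lost their call under total-count scaling and RPL4 and DCLRE1C under other settings. Of the others not called, CD5, CDK4, DNMT1, MCM2, MT-CO1, PCNA and VIM were also called higher under total-count scaling. EIF4E and HES4, and MTHFD2 and UBTF as well, were called lower in still other settings.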

Other observations

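Other gene groups of the same comparison were read as values. Of the polycomb, DNA methylation and chromatin repressor list 11 of 40 rose and 25 fell, with a median of -0.42 and a range of -2.79 to 1.13. CBX7, a reader of the polycomb mark, stood at 27.7, 29.3 and 29.2 CPM in shDHX15 and 3.86, 4.28 and 4.24 CPM with MYC (-2.79), and its groups did not overlap. EZH1, a methyltransferase of resting cells, fell by 1.76 and the deacetylase HDAC7 by 1.44, while DNMT1, the maintenance methyltransferase, was not called (0.02, edgeR adjusted p = 0.615). PCGF6 and PCGF1, subunits of variant polycomb complexes, rose by 1.13 and 1.01. Of the clock list, whose core factors also bind E-boxes, 9 of 21 rose and 10 fell, with a median of -0.03, or 10 higher and 8 lower under total-count scaling. RORA, DBP and ARNTL fell by 2.30, 2.06 and 1.26, and PER2 rose by 0.65.

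Of the lysosome and autophagy list 20 of 46 rose and 22 fell, with a median of -0.05, or 23 higher and 18 lower under total-count scaling. ATP6V0A1, a subunit of the proton pump, rose from 7.84 ± 1.42 to 33.1 ± 0.9103 CPM (2.09), LAMP1 by 0.84 and the autophagy receptor SQSTM1 by 0.68, and PSAP, the precursor of saposins, fell by 0.98. In the iron list 8 of the 14 tested (15 listed) rose and 5 fell, with a median of 0.18. The storage chain FTL rose from 276 ± 2.42 to 448 ± 16.9 CPM (0.71), with 483 CPM in shControl, and the iron carrier SLC11A2 fell by 1.34. Of the nuclear transport genes 22 of 45 rose and 17 fell, with a median of 0.10 and a range of -0.65 to 1.36, or 28 higher and 9 lower under total-count scaling, with NUP214 at 1.36. Of the cytoskeletal genes 8 of 25 rose and 14 fell, with a median of -0.18 and a range of -1.56 to 2.99, or 11 higher and 11 lower under total-count scaling. ACTG1, the cytoplasmic gamma-actin, stood at 6465, 6825 and 6724 CPM in shDHX15 and 2605, 2604 and 2664 CPM with MYC (-1.34), without overlap, while ACTB, the beta-actin, went from 2535 ± 199 to 2966 ± 42.7 CPM (0.24). TMSB4X, which holds actin monomers, fell by 1.20, the linker RDX rose by 2.99, and vimentin, VIM, was not called (0.05, edgeR adjusted p = 0.332).

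Of the histone genes of S phase 10 of the 46 tested (55 listed) rose and 20 fell, with a median of -0.46. Their median level was -0.11 log2 CPM, and of all genes under 0 log2 CPM 65.4% were called higher and 11.1% lower. Their messages lack a poly(A) tail, and these libraries were selected for poly(A).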
